A study of Mus musculus with 23 samples.

Results

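The oxysterol-binding protein family was examined through 10 genes, Osbp, Osbpl1a, Osbpl2, Osbpl3, Osbpl6, Osbpl7, Osbpl8, Osbpl9, Osbpl10 and Osbpl11, found by gene name in both deposited tables among the 26522 genes listed in either. The family was picked for the rise of Osbpl3 in female livers lacking Cpt1a. The size of that rise is therefore a description of how the genes were chosen and carries no test. The remaining named genes of the family in the tables, Osbp2 and Osbpl5, are given beside the members.

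The samples were 23 mouse livers profiled by bulk sequencing of poly-A RNA. All mice were on the B100 background, were fed WD for 16 weeks and were necropsied in the fed state. They formed 4 groups: 5 B100-Control males (replicates 1, 2, 3, 4 and 6), 6 B100-LKO males, 6 B100-Control females and 6 B100-LKO females. LKO livers carry a liver ablation of Cpt1a, the enzyme that starts the entry of long-chain fatty acids into mitochondria. The age of the mice, the driver of the ablation and whether littermates were used are not given in the sources used here. The labels number the samples within each group and do not say more about how they were raised, so p-values measure the spread between these samples.

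Oxysterol-binding proteins carry a lipid-binding pocket that takes up a sterol or another lipid on one membrane and PI4P, a phosphorylated phosphatidylinositol, on another. Many of them bridge the endoplasmic reticulum and a second organelle by holding the VAP proteins of the endoplasmic reticulum, and PI4P made on the second membrane and broken down on the endoplasmic reticulum drives the exchange. The family is grouped by sequence: OSBP with OSBP2, ORP1 with ORP2, ORP3 with ORP6 and ORP7, ORP5 with ORP8, ORP9 alone, and ORP10 with ORP11, where ORP is the protein name of an Osbpl gene. In liver these proteins take part in sterol transport, lipid droplet biology and lipoprotein secretion.

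The tables place Osbpl3 (ENSMUSG00000029822) on the minus strand of chromosome 6, from 50270310 to 50433181 in build mm39. Its promoter is shown with those of 3 other members because Osbpl3 is the member whose level varied most between the groups, Osbpl6 is of its subfamily and was almost silent in liver, Osbpl9 had the highest level per length, and Osbp is the founding member. Each sequence is the 250 bases before a RefSeq start in build GRCm38.p6, read 5′ to 3′ on the strand of the gene; capitals mark the letters CCAAT of the box of that name, and GGGCGG, the letters of a GC box, on either strand.
Osbpl3: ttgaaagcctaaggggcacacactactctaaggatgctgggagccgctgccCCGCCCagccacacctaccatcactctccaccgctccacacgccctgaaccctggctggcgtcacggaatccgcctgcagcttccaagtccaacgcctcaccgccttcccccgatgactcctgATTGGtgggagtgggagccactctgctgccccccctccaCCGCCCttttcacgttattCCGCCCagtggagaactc
Osbpl6: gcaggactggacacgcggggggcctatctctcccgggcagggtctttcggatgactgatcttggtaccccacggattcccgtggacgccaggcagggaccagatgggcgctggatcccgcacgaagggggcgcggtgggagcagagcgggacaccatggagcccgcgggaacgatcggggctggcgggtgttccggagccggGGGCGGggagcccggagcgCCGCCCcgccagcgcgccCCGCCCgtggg
Osbpl9: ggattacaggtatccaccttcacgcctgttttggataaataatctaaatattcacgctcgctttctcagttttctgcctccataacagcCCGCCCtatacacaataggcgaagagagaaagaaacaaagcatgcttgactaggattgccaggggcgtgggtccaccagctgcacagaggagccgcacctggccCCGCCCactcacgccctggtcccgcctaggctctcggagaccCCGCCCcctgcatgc
Osbp: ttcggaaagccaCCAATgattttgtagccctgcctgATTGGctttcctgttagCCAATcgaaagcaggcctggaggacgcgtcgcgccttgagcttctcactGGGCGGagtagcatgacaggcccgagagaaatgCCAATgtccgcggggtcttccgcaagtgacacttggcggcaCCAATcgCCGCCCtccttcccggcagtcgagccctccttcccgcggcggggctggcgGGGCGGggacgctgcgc

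These windows are chr6:50456171-50456420 (minus strand) for Osbpl3, chr2:76406258-76406507 (plus strand) for the first of 2 Osbpl6 starts, chr4:109202273-109202522 (minus strand) for the first of 2 Osbpl9 starts and chr19:11965594-11965843 (plus strand) for Osbp. The GC content was 62.8% for Osbpl3, 74% for Osbpl6, 56% for Osbpl9 and 64% for Osbp, against a median of 52.4% over all 32851 windows of that length in the table. The Osbpl3 window held 1 CCAAT match, 76 bases before the start, and 3 GGGCGG matches, 199, 37 and 18 bases before it. The Osbp window held 5 CCAAT and 3 GGGCGG matches, and the Osbpl6 and Osbpl9 windows shown each held 3 GGGCGG matches and no CCAAT. The second starts of these 2 genes differed. The second Osbpl6 window held 1 CCAAT and 0 GGGCGG matches, with a GC content of 46.4%. The second Osbpl9 window held 4 CCAAT and 0 GGGCGG matches, with a GC content of 69.6%. These are common letters: CCAAT lay in 33.8% of all windows and GGGCGG in 32.7%. The Osbpl3 window held no AGGTCA, which lay in 14% of all windows on either strand. It thus held no direct repeat of these letters in the spacing bound by the oxysterol receptor LXR with its partner RXR, which lay in 0.0152% of all windows, nor in the spacing bound by the PPAR receptors, which lay in 0.0335%. The lack of a match says only that these letters are not in this window. RefSeq windows were taken for 8 of the 10 members. Windows on chromosome 18, where Osbpl1a lies, were left out of the search, so none is given for Osbpl1a. No window was found for Osbpl10.

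Library depth ran from 14224665 to 19626662 counts. Cpt1a, the targeted gene, was at 301 to 426 CPM (counts scaled to a common library size) in control males, 288 to 436 in control females, 41.8 to 95.9 in LKO males and 62.4 to 87.7 in LKO females, so each library matched its genotype label. Hepatocyte markers (Alb, Apoa1, Ttr, Tat, Hnf4a) summed to between 49600 and 94200 CPM in every library. Because the tissue was whole liver, fewer cells of a type and less RNA per cell cannot be told apart.

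By level per length, the family in these livers was led by Osbpl9, Osbpl1a and Osbp. The scale used here for comparing levels between genes was FPKM, fragments scaled by gene length and by a factor per library within each sex. Osbpl9 averaged 13.5 ± 1.93 FPKM in control males (SD, n = 5) and 14.5 ± 1.46 in control females (SD, n = 6). ORP9, the product of Osbpl9, exchanges PI4P at contacts of the endoplasmic reticulum with the Golgi. Osbpl1a, whose long product sits on late endosomes and senses their sterol, averaged 11 ± 0.928 FPKM in control males (SD, n = 5) and 11.4 ± 0.94 in control females (SD, n = 6). Osbp, whose product delivers cholesterol to the Golgi in exchange for PI4P, averaged 10.4 ± 1.42 FPKM in control males (SD, n = 5) and 9.53 ± 1.05 in control females (SD, n = 6). The ranges of Osbpl9 and Osbpl1a, and those of Osbpl1a and Osbp, overlapped in both control groups. Osbpl2, whose product moves sterol to the plasma membrane, followed at 6.39 FPKM in control males and 6.69 in control females.

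Osbpl3 took 5th place in control males, at 2.49 ± 1.57 FPKM (SD, n = 5), and 5th in LKO males, at 3.94 ± 1.09 (SD, n = 6). In both male groups its range overlapped that of the next member, Osbpl11. In control females Osbpl3 was 8th, at 0.221 ± 0.114 FPKM (SD, n = 6), below every Osbpl7 value of that group and overlapping Osbpl10. In LKO females it was 6th, at 1.68 ± 0.68 FPKM (SD, n = 6), overlapping Osbpl11 above it and Osbpl8 below it. The summed FPKM of the 10 members was 49 ± 1.46 in control males, 51.2 ± 2.45 in LKO males, 47.3 ± 2.38 in control females and 46.8 ± 1.7 in LKO females (SD, n = 5, 6, 6 and 6). The share of that sum taken by Osbpl3 averaged 5.06% in control males, 7.75% in LKO males, 0.46% in control females and 3.62% in LKO females. FPKM was scaled within each sex, so its levels and sums carry that limit between the sexes.

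**Figure D1:**
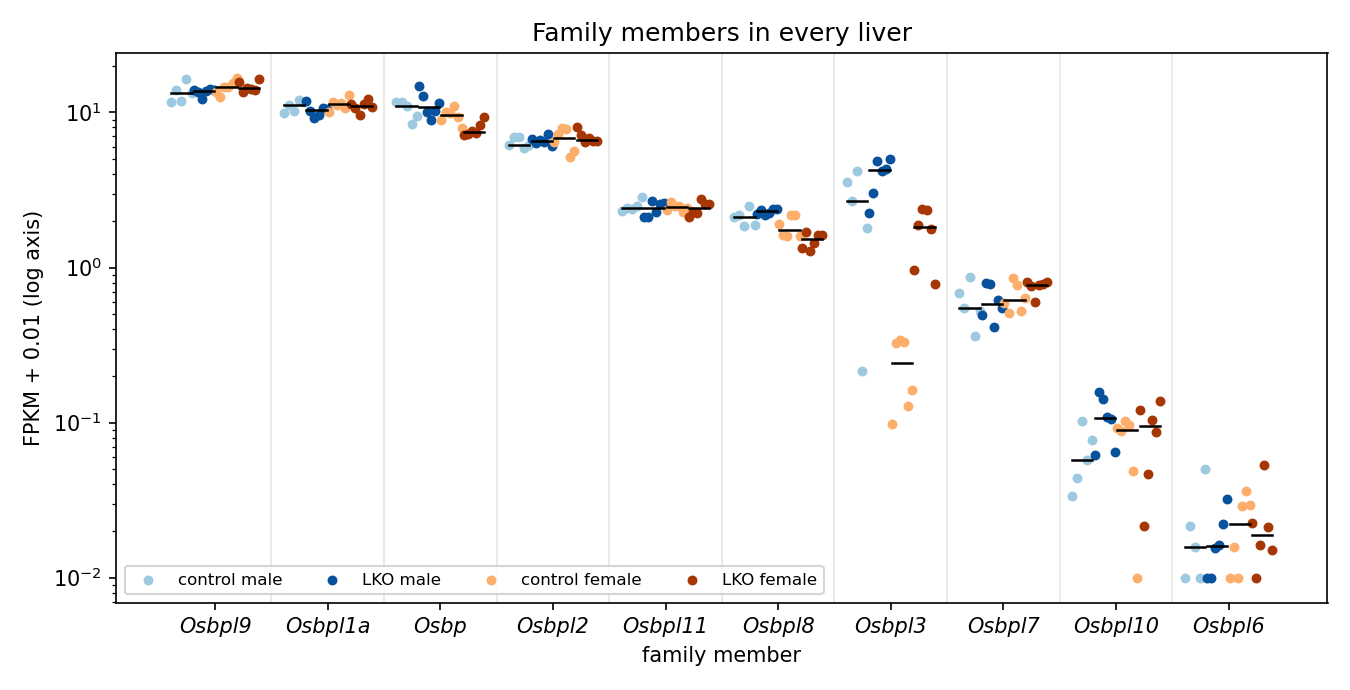
Level per length of the 10 members as FPKM + 0.01 (log axis, so that a value of 0 can be drawn) in each liver, by group; each point is 1 liver and the bar is the group median. Osbpl9, Osbpl1a and Osbp lie highest and Osbpl6 lowest, and the Osbpl3 points of the control females and of 1 control male lie below those of the other livers.

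Osbpl3 was low in every control female and higher in every LKO female. ORP3, its product, works at contacts of the endoplasmic reticulum with the plasma membrane and binds the small GTPase R-Ras. The 6 control females had 0.794, 2.89, 3.01, 2.93, 1.07 and 1.37 CPM, from 13 to 50 reads each. The 6 LKO females had 8.59, 17.1, 21.8, 21.3, 16.2 and 7.12 CPM, from 135 to 435 reads each. The female groups did not overlap: the lowest LKO female was above the highest control female. Groups without overlap were found for 1.59% of all genes tested in females, and nothing is read from this for Osbpl3. The means were 2.01 ± 1.04 and 15.4 ± 6.23 CPM (SD, n = 6 each), a ratio of 7.63, and the fitted log2 difference was 2.92 (SE 0.35, 95% interval 2.17 to 3.68). In the authors' deposited table the log2 fold change of Osbpl3 in females was 2.93.

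In males Osbpl3 was already high without the ablation, and the groups overlapped. Control males 1, 2, 3 and 6 had 32.4, 24.4, 37.9 and 16.2 CPM, while control male 4 had 1.85 CPM, from 23 reads. The 6 LKO males had 20.3, 27.4, 44.4, 38, 39.3 and 45.2 CPM. Control male 4 thus lay within the range of the control females, and the other control males overlapped the LKO males. The means were 22.5 ± 14.2 CPM in control males (SD, n = 5) and 35.8 ± 9.9 in LKO males (SD, n = 6). The log2 difference was 0.65 (SE 0.46, 95% interval -0.34 to 1.65) and did not pass the test, edgeR's quasi-likelihood test with Benjamini-Hochberg adjustment over all genes of the male table (adjusted p = 0.594). Without control male 4 it was 0.363 (SE 0.252, adjusted p = 0.596 by the same test), smaller by over 1.5 times. In the authors' deposited table the male log2 fold change of Osbpl3 was 0.66.

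**Figure D2:**
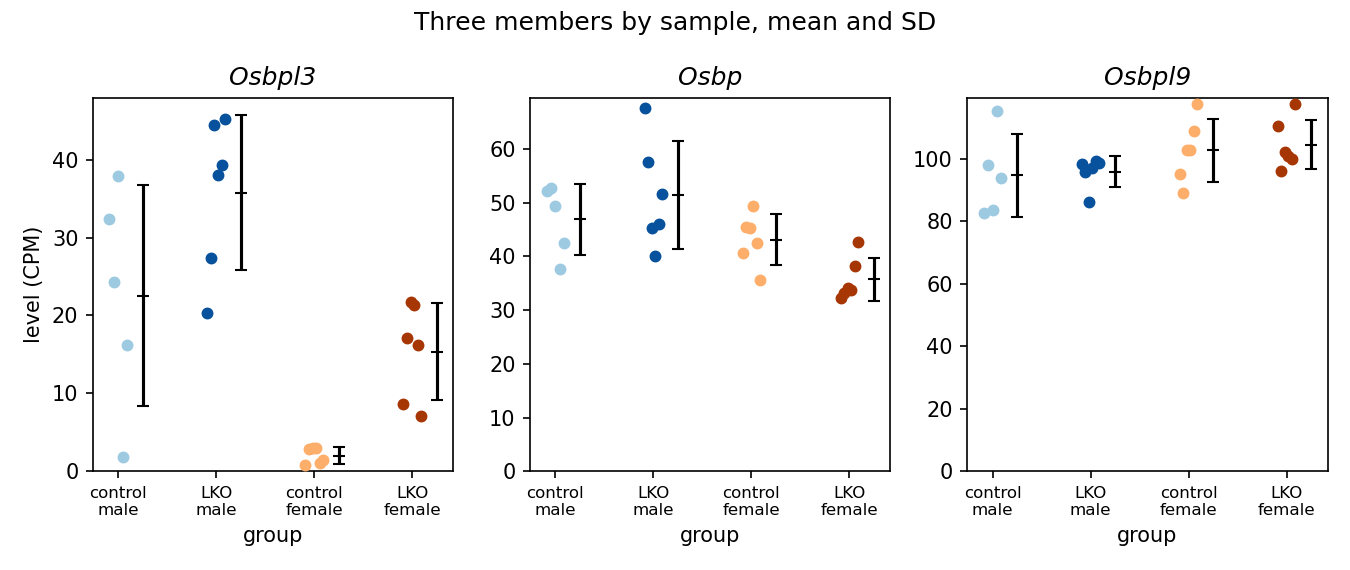
Osbpl3, Osbp and Osbpl9 in CPM (linear axes from 0) in each of the 23 livers, by group; each point is 1 liver and the bar beside it shows the group mean and SD. In the Osbpl3 panel the LKO females (7.12 to 21.8) lie above all control females (0.794 to 3.01) and 1 control male stands at 1.85, while for Osbp and Osbpl9 the ranges of all 4 groups overlap.

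Control male 4 stood apart in more than Osbpl3. It had the lowest depth of the series and was the lowest control male for 12 of 13 steatosis genes linked to PPAR-gamma (92.3%), 6 of 7 stellate cell and fibroblast markers and 4 of 8 tested members. Over all 14503 genes tested it was the lowest for 27.2%. What set it apart was not tested. For some results the value or call without it is given beside the result, but not for all that it moved by over 1.5 times. Male log2 differences given once below include Osbp, at 0.06 without it, Osbpl7, at -0.11, and Osbpl5, at 0.25. The male medians without it were 0.01 for the LXR targets and 0 for the lipid transfer list. Leaving it out of the lists and correlations was chosen after seeing the data.

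The sex comparison of Osbpl3 was made in the controls. Control females had 8.93% of the mean CPM of control males, a log2 difference (female minus male) of -3.49 (SE 0.57, 95% interval -4.71 to -2.27; edgeR quasi-likelihood test, adjusted p = 0.0014). The ranges overlapped through control male 4 alone, and without it the difference was -3.78 (SE 0.33, adjusted p = 1.02e-05 by edgeR). LKO females reached 68.1% of the control male mean. The control females of this comparison are also those against which the rise of Osbpl3 was seen, so it is not independent of how the family was picked. Sex coincides with the deposited table, so differences between the sexes and between the tables cannot be told apart.

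The genotype difference of Osbpl3 was set against itself between the sexes as an interaction over all 23 livers. The difference in females exceeded that in males by 2.27 on the log2 scale (SE 0.63, 95% interval 0.96 to 3.57). Without control male 4 it was 2.55 (SE 0.459). The interaction contains the female difference for which the family was picked, so it leans towards a large value and is given as a description with no test. edgeR did not call it with all livers and called it without control male 4, and nothing is read from either.

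The other 7 tested members did not share the pattern of Osbpl3 in females. Of the 8 members tested, 1 was called higher and 0 lower by edgeR at an adjusted p under 0.05, against 1.42% of all 13684 genes called in that comparison. That count is fixed by how the family was picked, and nothing is read from it. The log2 differences of the other 7 ran from -0.30 to 0.23, and the median over the 8 was 0.01, against 0.00507 over all genes tested.

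Osbp and Osbpl8 had the most negative female differences among the members. For Osbp, control females had 40.6, 45.6, 45.2, 49.5, 42.5 and 35.6 CPM, and LKO females had 32.2, 33.2, 34.1, 33.8, 38.2 and 42.8. The ranges overlapped, with a log2 difference of -0.27 (SE 0.09). Osbpl8, whose membrane-anchored product exchanges phosphatidylserine for PI4P at the plasma membrane, had a log2 difference of -0.30 (SE 0.11). Its levels were 18.3, 15.6, 15.5, 21, 21 and 15.2 CPM in control females and 12.7, 16.3, 12.2, 13.9, 15.8 and 15.6 in LKO females, again overlapping. Neither was called in the fit or in any alternative run, and in males their differences had the opposite sign, 0.13 (SE 0.14) for Osbp and 0.14 (SE 0.08) for Osbpl8. The interaction was -0.40 (edgeR, adjusted p = 0.329) for Osbp and -0.44 (edgeR, adjusted p = 0.227) for Osbpl8, so a difference between the sexes was not called for either.

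Osbpl7, in the same subfamily as Osbpl3, averaged 0.59 FPKM in control males, below the mean of Osbpl3 there. In CPM it averaged 3.5 ± 1.14 in control males (SD, n = 5), 3.57 ± 0.932 in LKO males, 3.81 ± 0.822 in control females and 4.47 ± 0.482 in LKO females (SD, n = 6 each). Its log2 difference was 0.23 (SE 0.15) in females and 0.02 (SE 0.24) in males. The third gene of the subfamily, Osbpl6, had 0 to 9 reads a library and did not enter the tests. Osbpl10 had 0 to 13 reads a library and did not enter them either. A count of 0 at these depths allows up to 3 reads, which is 0.147 to 0.241 CPM depending on the library, so in a liver with 0 reads low expression cannot be told from none. Osbpl10 reached 0.761 CPM and Osbpl6 0.442 CPM in their highest livers.

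The product of Osbpl11 works with ORP9 at the Golgi and endosomes. Osbpl11 averaged 12.7 ± 1.08 CPM in control males (SD, n = 5), 12.3 ± 1.33 in LKO males, 12.6 ± 0.706 in control females and 12.5 ± 1.31 in LKO females (SD, n = 6 each). Osbpl9 averaged between 94.6 and 104 CPM in the 4 groups, Osbpl1a between 81.3 and 89.3, and Osbpl2 between 26.8 and 29.4. The female log2 differences of these 4 members lay between -0.04 and 0.05, with standard errors of 0.08 to 0.11.

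In males, 0 of 8 tested members were called by edgeR, against 0.00724% of 13805 genes, and 0 of 8 had an unadjusted p under 0.05, against 12.5% of all genes. DESeq2 called 0 as well. The log2 differences other than that of Osbpl3 ran from -0.08 to 0.14, with a median over the 8 of 0.03, against 0.0103 over all genes. For the interaction edgeR called 0 of 8, against 0% of all 14503 genes, and DESeq2 called 0. There 3 members (Osbp, Osbpl3 and Osbpl8) had an unadjusted p under 0.05, against 12.9% of all genes. The interaction of Osbpl3 holds the difference for which the family was picked, so nothing is read from that count. Between control females and control males 1 of 8 was called, Osbpl3, in the lower direction. Over all 13699 genes 18% were called and 9.2% were called lower. The Osbpl3 call uses the control females of the pick and is not independent of it. The log2 differences of the other 7 ran from -0.18 to 0.12.

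**Figure D3:**
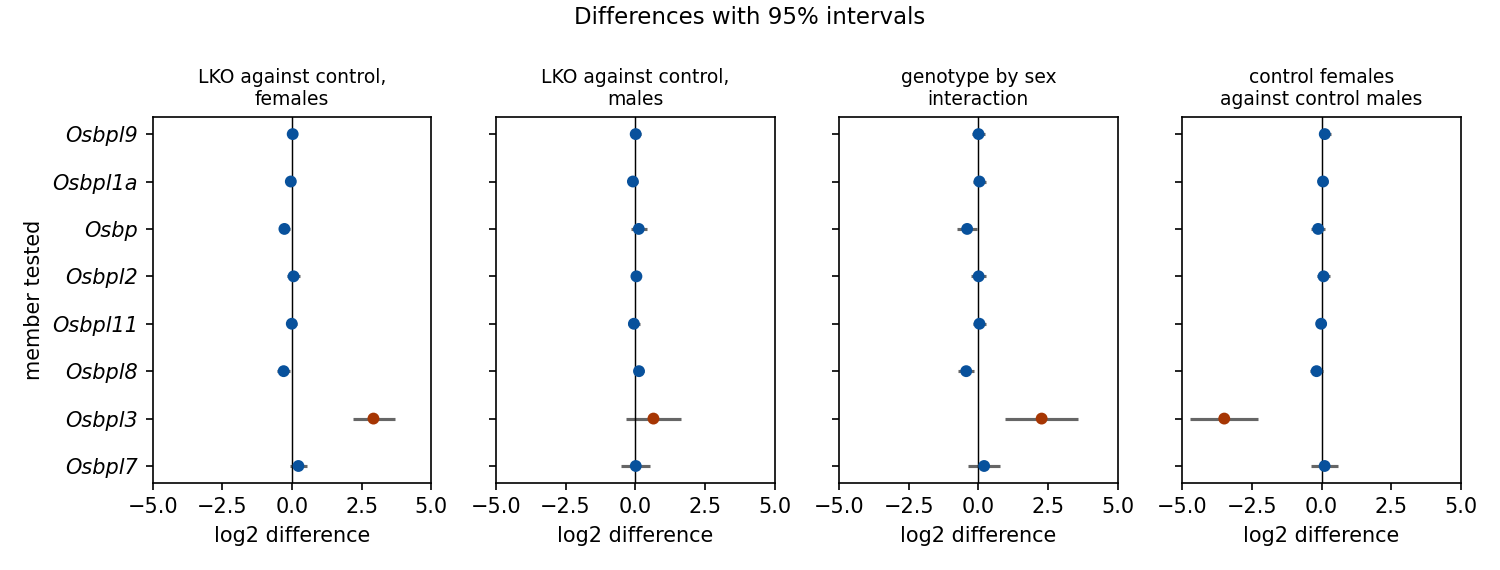
Log2 difference with 95% interval of each tested member for LKO against control in females, for the same in males, for the interaction and for control females against control males; points are estimates and lines the intervals. Osbpl3 lies at 2.92, 0.65, 2.27 and -3.49 in the 4 panels, and its male interval spans 0, while the other members lie between -0.44 and 0.23.

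Of the remaining family genes, Osbp2, the close relative of Osbp, averaged 0.533 CPM in control males, 0.455 in LKO males, 1.45 in control females and 1.45 in LKO females. Osbpl5, whose product is the relative of ORP8 at the plasma membrane, averaged 4.53, 5.96, 7.27 and 9.08 CPM in the same order. Osbpl5 was not called in any comparison, with log2 differences of 0.32 (SE 0.35) in females and 0.39 (SE 0.27) in males. Osbp2 was tested in females, at 0.00 (SE 0.32), and not in males.

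The genes beside Osbpl3 on chromosome 6 had smaller differences. Osbpl3 is read from its 5′ end at 50433181 towards lower coordinates, and 4 tested genes had a 5′ end within 1000000 bases of that point. In females edgeR called 0 of them, 2 had an unadjusted p under 0.05 (against 15.6% of all genes), and DESeq2 called 1, Cycs. Their female log2 differences ran from 0.10 to 0.27. Measured between the low coordinates that the tables list, Ccdc126 also fell within that distance, at 0.49 (SE 0.27; edgeR, adjusted p = 0.396). On the low side the nearest were Gsdme, a pore-forming protein gene, at 0.21 (SE 0.08), and Pals2 at 0.11 (SE 0.07). On the high side they were Cycs, which encodes cytochrome c, at 0.27 (SE 0.07; edgeR, adjusted p = 0.0758), and the non-coding gene 5430402O13Rik at 0.10 (SE 0.34).

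Genes whose level moved from liver to liver with that of Osbpl3 were sought after the 4 group means had been removed, over the 23 libraries and 10611 genes. The 8 with the highest Pearson correlation were Abhd2 (r = 0.92), Unc5b (0.91), Cidec (0.91), Ttc39a (0.90), Myo1d (0.90), Slc16a7 (0.89), Anxa7 (0.89) and Fam102a (0.89), and their Spearman rho ran from 0.76 to 0.87. These are descriptions with no test. The 1% most alike genes began at r = 0.76, and the median gene had r = -0.045. Leaving out the 2 libraries farthest from the median of Osbpl3, control male 4 and control female 1, r was 0.87 for Abhd2, 0.80 for Cidec and 0.77 for Anxa7, the lowest of the 8. Within females alone r ran from 0.72 to 0.92 and within males alone from 0.91 to 0.97. With control male 4 left out, the male r ran from 0.63 to 0.83 over 10 males, and r over the remaining 22 livers ran from 0.71 to 0.85.

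Cidec encodes a lipid droplet protein that helps droplets fuse. Its levels were 6.72, 16.8, 18.9, 14.3, 5.89 and 6.34 CPM in control females and 24.5, 44.7, 75.3, 55.6, 36.7 and 41.9 in LKO females. The LKO and control females did not overlap, and the log2 difference was 2.01 (SE 0.32; edgeR, adjusted p = 0.00691). In control males Cidec stood at 10.3 CPM in replicate 4 and between 222.6 and 300 in the others, the same replicate that was low for Osbpl3. Of the other 7 genes, Unc5b, a netrin receptor gene, rose by 1.2 (SE 0.23; edgeR, adjusted p = 0.0177) in LKO females and Ttc39a by 1.99 (SE 0.44; edgeR, adjusted p = 0.0384). Abhd2 had a difference of 0.71 (edgeR, adjusted p = 0.0657), and none of the 8 was called by edgeR in males, where the lowest adjusted p was 0.42. In a fit of all 23 livers Cidec in females was not called (edgeR, adjusted p = 0.066).

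**Figure D4:**
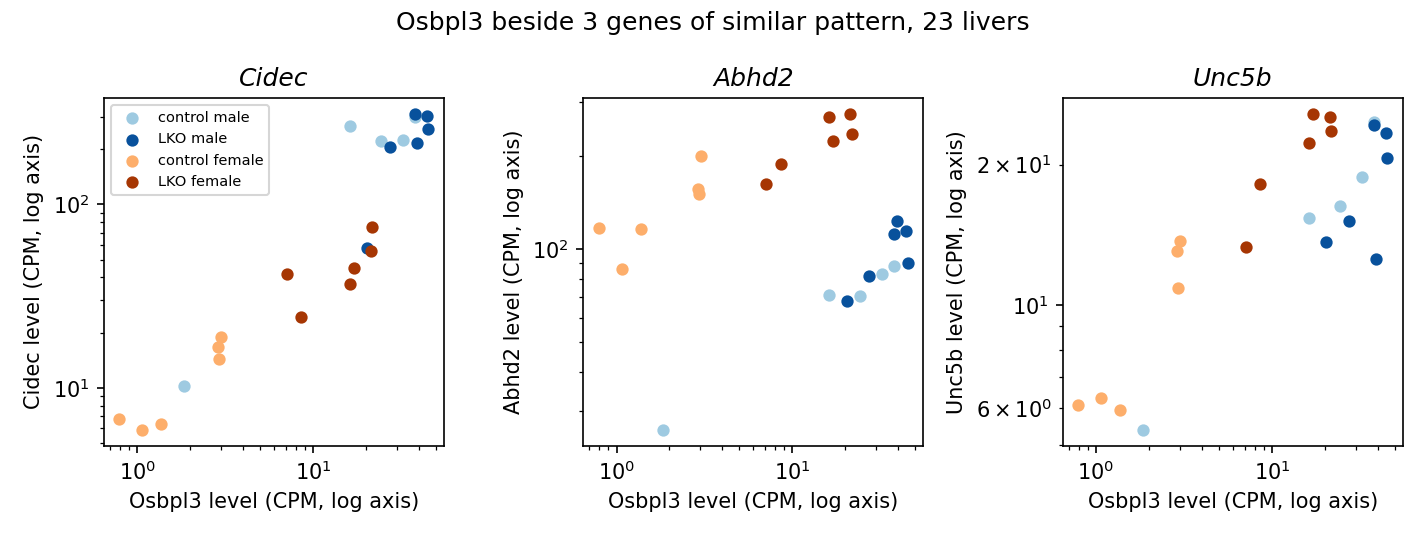
CPM (log axes) of Cidec, Abhd2 and Unc5b against Osbpl3 in the 23 livers; each point is 1 liver, coloured by group. The control male at 1.85 CPM of Osbpl3 falls among the control females in the Cidec panel, where they are at 5.89 to 18.9 CPM, and is the lowest liver in the other panels.

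The related gene lists were drawn from general knowledge of the pathway. Of the list of contact site anchors and genes of the PI4P cycle, 14 were tested in each sex, and edgeR called 0 in females and 0 in males, with a median log2 difference of 0 and 0.01, and at an unadjusted p under 0.05 there were 1 and 3, against 15.6% and 12.5% of all genes. DESeq2 called none in either. Pi4k2a, a kinase that makes PI4P, had -0.25 (edgeR, adjusted p = 0.157) in females. Sacm1l, the phosphatase that removes PI4P in the endoplasmic reticulum, had 1.41, 3.29, 3.01, 1.45 and 2.02 CPM in control males and 5.99, 3.69, 3.32, 3.35, 5.02 and 4.52 in LKO males. The male groups did not overlap, though the margin was 3.29 to 3.32 CPM, and the difference of 0.93 (SE 0.26; edgeR, adjusted p = 0.266) was not called. Groups without overlap were found for 1.77% of all genes tested in males.

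Of 20 other sterol and lipid transfer genes tested, 0 were called by edgeR in either sex, with medians of 0.01 in females and 0.07 in males. In females 5 had an unadjusted p under 0.05, against 15.6% of all genes, and in males 3, against 12.5%. DESeq2 called none in either. Stard4, which carries sterol between membranes, had -0.56 (edgeR, adjusted p = 0.131) in females, and Pitpnm1, a phosphatidylinositol transfer gene, had 0.41 (edgeR, adjusted p = 0.114).

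The 6 oxysterol synthesis and breakdown genes tested in females were called by edgeR in no case, 0 of 6, with a median of -0.26, none of them above 0, against 51.1% of all genes above 0. None had an unadjusted p under 0.05, and DESeq2 called none. Hsd11b1 had -0.28 and Cyp7a1, the rate-limiting enzyme of bile acid synthesis, had -0.44 (edgeR, adjusted p = 0.346). In males edgeR and DESeq2 called 0 of 7, with a median of -0.14, and 2 had an unadjusted p under 0.05, against 12.5% of all genes. Cyp7a1 had 1.01 (edgeR, adjusted p = 0.334) there and Cyp39a1, a hydroxylase of 24-hydroxycholesterol, had -0.50 (edgeR, adjusted p = 0.245). The LXR targets (11 tested in each sex) were not called by edgeR or DESeq2, with medians of -0.12 in females and 0.12 in males. In females 1 had an unadjusted p under 0.05, against 15.6% of all genes, and in males 0, against 12.5%. Scd1, the desaturase, had -0.67 and Abcg8, which encodes a subunit of a sterol exporter, had -0.43 in females.

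The list of steatosis genes linked to PPAR-gamma holds genes that fatty livers express for lipid uptake and storage. Of 12 tested in females, 2 were called higher by edgeR, Cidec and Lpl, against 0.928% of all genes. DESeq2, run without that filter, called 5 of the 14 genes on the list, against 554 of all 24940 genes listed for females. All 12 had a difference above 0, with a median of 0.86 against 0.00507 over all genes. Cidea and Adipoq did not enter the female tests. Cidea was near the floor and went the other way, at a mean of 0.824 CPM in control and 0.127 in LKO females. Lpl, the lipoprotein lipase gene, averaged 33.2 ± 11.3 CPM in control and 67.7 ± 5.44 in LKO females (SD, n = 6 each), a difference of 1.03 (SE 0.18; edgeR, adjusted p = 0.0134). In males 0 of 13 were called by edgeR and 0 by DESeq2, with a median of 0.02. There 1 had an unadjusted p under 0.05, against 12.5% of all genes. Cfd, adipsin, had the lowest male difference, -1.26 (edgeR, adjusted p = 0.436), and G0s2, an inhibitor of lipolysis, had -0.74 (edgeR, adjusted p = 0.303). Without control male 4, edgeR again called 0 of 13 in males, and the median was -0.14, of the opposite sign. The interaction called 0 of 13 with edgeR and with DESeq2, so a difference between the sexes was not called for any of them. There 5 had an unadjusted p under 0.05, against 12.9% of all genes, and the median was 0.7, against 0.00746 over all genes.

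**Figure D5:**
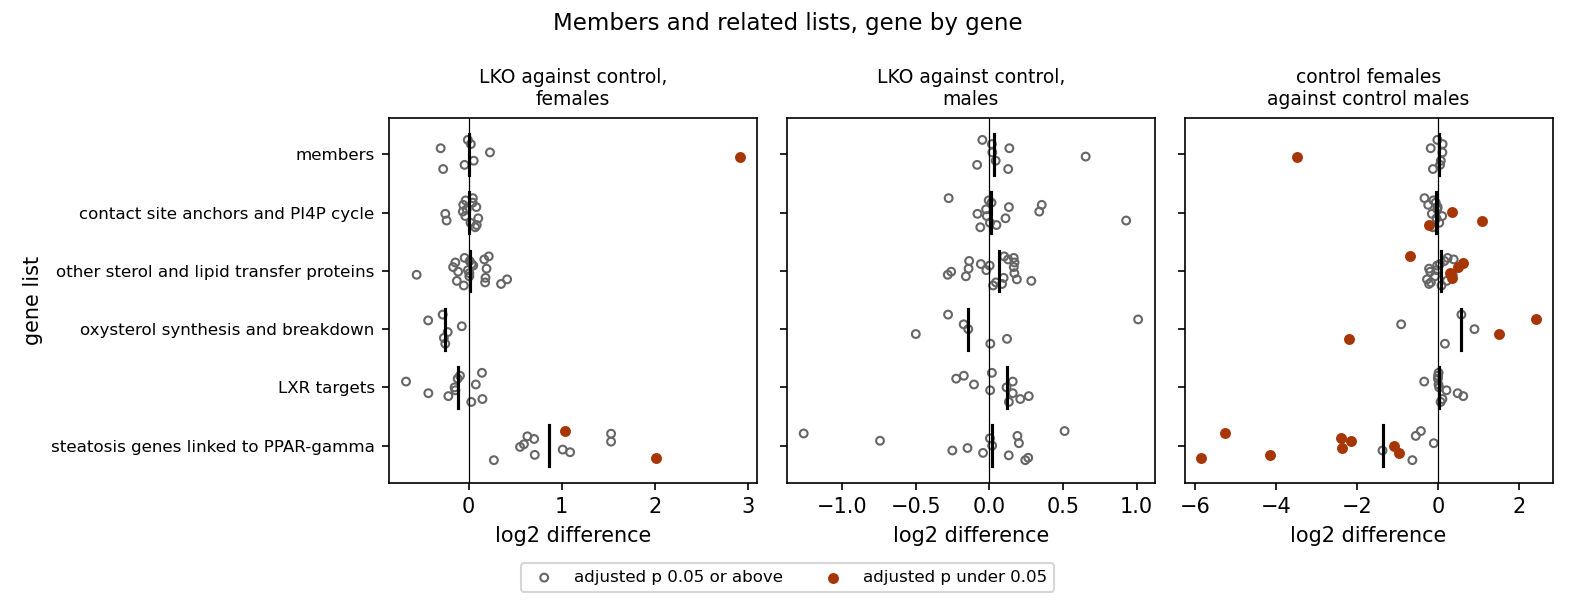
Log2 difference of each tested gene in the members and in 5 related lists for LKO against control in females, in males, and for control females against control males; the bar is the median and filled points passed an adjusted p of 0.05. Steatosis genes lie above 0 in the female panel and below 0 between the sexes, all tested oxysterol genes lie below 0 in the female panel, and the other lists have points on both sides of 0 there.

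Between control females and control males, the steatosis list had 8 of 13 called lower and 0 higher, against 9.2% of all genes called lower, with a median of -1.37. Without control male 4, 10 of 13 were called lower, with Plin4 and Pparg added. Those called with it were Cidec, at -4.16, Cidea, Plin2, Mogat1, Fabp4, G0s2, Fitm1 and Cfd, names, like the others of this paragraph, taken after their values were seen. Of 7 oxysterol genes 2 were called higher, against 8.8% of all genes, and 1 lower; without control male 4, 3 were higher, with Hsd11b1 added. Cyp7b1, which hydroxylates oxysterols on the way to bile acids, was lower in females, at -2.19 (SE 0.45; edgeR, adjusted p = 0.00595). Control male 4 stood at 327.7 CPM of Cyp7b1 and the other control males between 47.9 and 93.8, and without it the difference was -1.33 (SE 0.2; edgeR, adjusted p = 0.000717). Cyp39a1 (1.5; edgeR, adjusted p = 5.71e-05) and Cyp7a1 (2.42; edgeR, adjusted p = 0.000438) were higher in females. Of 20 tested genes of the lipid transfer list 4 were called higher and 1, Scp2, lower at -0.69. Without control male 4, 5 were higher, with Vps13a added. Of 14 tested anchors and PI4P genes 2 were called higher and 1 lower, with Sacm1l at 1.08 in females over males. Over all genes 8.8% were called higher and 9.2% lower. In either direction edgeR called 2466 of all 13699 genes with control male 4 and 2947 of 13907 without it.

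Cell type markers were set beside Osbpl3 because whole liver was sequenced. In females 5 of 9 lipid-associated macrophage markers (Gpnmb, Trem2, Spp1, Mmp12 and Cd63) were called higher, against 0.928% of all genes. Itgax (1.17), Cd9 (-0.03), Fabp5 (-1.08) and Atp6v0d2 (-0.49) were not called. Spp1 is also a listed marker of cholangiocytes. It was the 1 called of those 5 markers in females, and all 5 had a difference above 0, against 51.1% of all genes. The summed level of the 9 lipid-associated macrophage markers was 94.6 to 282 CPM in control and 150 to 242 in LKO females, which overlapped. Fabp5 alone ran from 15.8 to 175 CPM in control and 8.72 to 43.9 in LKO females, so it weighs on that sum. Taken singly, the 5 called markers did not overlap between the female groups and the others of that list did. Groups without overlap were found for 1.59% of all genes tested in females. In males 0 of 9 were called by edgeR, and 1 had an unadjusted p under 0.05, against 12.5% of all genes. DESeq2 called 1 of them in males, against 107 of all 24434 genes listed. The sums were 97 to 379 CPM in control males and 92.1 to 382 in LKO males. Of 7 stellate and fibroblast markers 0 were called by edgeR in females, and 4 had an unadjusted p under 0.05, against 15.6% of all genes. DESeq2 called 1 of them, against 554 of all 24940 genes listed. The sums were 192 to 246 CPM in control and 193 to 366 in LKO females. Of 7 macrophage and monocyte markers 1, Ccr2, was called higher in females, with sums of 208 to 406 and 319 to 425 CPM. Of 5 Kupffer cell markers 0 were called in females by edgeR or DESeq2, none with an unadjusted p under 0.05, and the sums were 428 to 853 and 484 to 833 CPM. No listed marker was at 0 in a whole group. Between control females and control males 4 of 9 lipid-associated macrophage markers were called lower and 1 higher, against 9.2% and 8.8% of all genes. There 3 of 5 Kupffer cell markers and 2 of 5 hepatocyte markers were called higher. Without control male 4 the lipid-associated macrophage counts were 6 lower and 1 higher of 9, and 4 of 5 Kupffer markers were higher. Stellate and fibroblast markers called lower went from 1 to 3 of 7. Without that liver edgeR called 2947 of all 13907 genes in either direction. Kupffer markers summed to 237 to 515 CPM in control males. Some markers moved with Osbpl3 from liver to liver. After the group means were removed, r with Osbpl3 over 23 livers was 0.84 for Col1a1, 0.81 for Col3a1, 0.78 for Gpnmb and 0.77 for Mmp12, all above the 0.76 at which the 1% most alike genes began, and -0.66 for the Kupffer marker Clec4f. Leaving out control male 4, these were 0.72, 0.70, 0.64, 0.56 and -0.36. These 5 were picked for their size. Over 23 livers the lipid-associated macrophage markers ran from 0.06 (Fabp5) to 0.78 and the stellate and fibroblast markers from 0.29 (Des) to 0.84. Kupffer markers ran from -0.66 to -0.06 (Cd5l) and hepatocyte markers from -0.59 (Hnf4a) to -0.29 (Alb). Over the 10 males without control male 4, Kupffer markers ran from -0.10 (Marco) to 0.81 (Cd5l). In the same 10 males, lipid-associated macrophage markers ran from -0.18 (Fabp5) to 0.86 (Mmp12). Stellate and fibroblast markers ran there from -0.48 (Acta2) to 0.89 (Lrat and Pdgfrb), and hepatocyte markers from -0.83 (Ttr) to -0.51 (Tat). These correlations are descriptions, and the part of these cell types in the Osbpl3 values was not tested.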

How the data were processed

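Liver poly-A RNA was sequenced from dUTP libraries, per the labels' protocols. Reads were aligned with HISAT2 2.0.5 to build mm39, per the submitters' processing notes; the counting tool, its strand setting and the annotation are not given in the sources used here, so reads of overlapping or antisense genes could be shared. The authors deposited, for each sex in its own table, raw counts, counts divided by size factors (signal), FPKM, and their own log2 fold changes with p-values and adjusted p-values. The tables list 24940 genes for females and 24434 for males.

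Groups came from the sample labels. Raw counts were tested with edgeR 4.0.16 (quasi-likelihood, TMM factors, filterByExpr, Benjamini-Hochberg over all genes tested, called under 0.05) in R 4.3.3, each sex within its own table and the interaction and the comparison of controls over genes in both tables. CPM used 1 set of TMM factors over all 23 libraries, while each test computed TMM factors from its own libraries. DESeq2 1.42.0 and limma 3.58.1 served as alternatives. DESeq2 was run without filterByExpr, so its totals count every gene listed, whether or not it was given an adjusted p. Likeness to Osbpl3 was computed among genes averaging 50 counts or more. The procedure was tested on simulated data. The members and gene lists were chosen with earlier results of these data known. Named genes are the members, the genes called or with the lowest p in each list, the 8 most like Osbpl3 and the 2 nearest neighbours on each side. Promoter windows came from RefSeq, build GRCm38.p6, and were not combined with the mm39 coordinates.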

Additional observations from a re-analysis of the deposited data

Results flagged for a closer look

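Each of the 40 groups of member values (4 groups for each of 10 genes) was examined for 1 liver far from the rest of its group, and 3 had one; chance gives about 1 in 20 groups. Osbpl6 was at 0.442 CPM in LKO female replicate 4, against 0 to 0.127 in the other 5, a difference of a few reads. Osbpl7 was at 3.52 CPM in LKO female replicate 3, against 4.49 to 4.8 in the others. Osbpl9 was at 86.1 CPM in LKO male replicate 3, against 95.7 to 99.2 in the others.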

How the results depend on the processing

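The female log2 difference of Osbpl3 was 2.92; it was 1.1 with limma on log2(FPKM + 1) and 2.45 on log2(FPKM + 0.1), where the pseudocount enters, and 2.76 to 3.07 with 1 liver left out. The members called in the interaction ranged from 0 to 1 with 1 liver left out, with 1 only without control male 4. With library size alone the male difference of Osbpl11 was 0.0151 and the interactions of Osbpl2 and Osbpl9 were -0.00168 and -0.0158. The interaction of Osbpl9 was -0.00508 with no filter and -0.000192 with limma on log2(FPKM + 0.1). With 1 liver left out, male differences ran from -0.112 to 0.209 (Osbpl7), -0.0249 to 0.0952 (Osbpl9) and -0.0767 to 0.00594 (Osbpl11). Interactions ran from -0.0567 to 0.0594 (Osbpl2), -0.0807 to 0.0477 (Osbpl9) and -0.0263 to 0.0763 (Osbpl11), and differences between control sexes from -0.0201 to 0.284 (Osbpl7) and -0.042 to 0.0403 (Osbpl11). No member among these was called in any of them. Cidec in females was not called in a fit of all 23 livers (2.02, adjusted p = 0.066, edgeR).

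A replicate block gave Osbpl3 differences of 2.95 in females, 0.862 in males, 2.09 for the interaction and -3.1 between control sexes, and Osbpl11 0.00732 between control sexes; Stard4 in females was then called (-0.549; edgeR, adjusted p = 0.0492). The labels tie no number to a litter or batch, and the numbers were not taken as pairs. The SE of the female Osbpl3 difference was 0.183 with the block and 0.355 without it. The deviations of same-numbered females correlated at 0.007 to 0.177 (4 of 6 pairs over 0.1, 3 of 6 livers best with their own number). Those of males correlated at -0.341 to 0.404 (1 of 5 over 0.1, 1 of 5 best). Whether a shared number marks a pair was not tested. Over all genes edgeR called 194 in females, 1 in males, 0 for the interaction and 2466 between control sexes, against 554, 107 and 72 by DESeq2 for the first 3; the block gave 334 in females and 991 between control sexes, and the fit of all 23 livers gave 94 in females. The limma alternatives were not run between sexes, since FPKM was scaled within each table.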

Other observations

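After removal of the 4 group means, over the 23 libraries, the highest correlations between members were Osbpl3 with Osbpl7 (Pearson r = 0.52, Spearman rho = 0.39) and Osbpl1a with Osbpl9 (r = 0.49, rho = 0.39). The lowest was Osbpl3 with Osbpl9 (r = -0.71, rho = -0.58), the most abundant member per length. Among the control males, replicate 4 had the highest Osbpl9 (115.3 CPM, against 82.7 to 97.8 in the others) and the highest Osbpl1a. It also had the lowest Osbpl3 and Osbpl7. Correlations between members are not given without that liver. These are descriptions with no test, and the values of a library share its scaling.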
